A study of Mus musculus with 10 samples.

Results

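The genes described here are 40 members of the p53 and DNA damage response, out of the 21792 Ensembl genes listed for the mouse kidney cortex. They were chosen by name as genes known to regulate p53, to sense DNA damage or to be transcribed by p53. Earlier results of these data were known when they were chosen. All 40 were listed with a value for every mouse, which was 0 for *Cd80* in 3 sham mice and for *Gtse1* in B634. All 40 passed the filter for testing, which asked for an average of 0.1 FPKM or more and left 17129 of all genes. FPKM, the unit of all levels below, counts the sequenced fragments of a gene per kilobase of its length and per 1 M fragments of the mouse.

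p53, encoded by *Trp53* in the mouse, is a transcription factor that is made and degraded continuously in healthy cells. The ubiquitin ligase Mdm2 and its relative Mdm4 bind it and keep it low or silent. Damaged or stalled DNA activates the kinases Atm and Atr and, through them, Chek1 and Chek2, and phosphorylated p53 escapes degradation. It then raises the transcription of genes that stop the cell cycle, repair DNA, change metabolism or start apoptosis, among them *Mdm2* itself, which closes a feedback loop. Aristolochic acid, the plant toxin used here, forms adducts with DNA in the proximal tubule, the segment of the nephron that takes it up. Much of the control of p53 acts on the protein, which RNA levels do not show.

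The mice were male C57BL/6 animals of wild type genotype, aged 8 weeks per the labels, whose kidneys were taken at day 28. The 6 AAN mice, named for aristolochic acid nephropathy, received aristolochic acid once in the peritoneum at 5 mg/kg, and the 4 sham mice received the solvent PBS in its place. RNA came from the cortex of the kidney, a mixture of cell types, so a change in the number of cells of a type cannot be told apart from a change in RNA per cell. Each mouse gave 1 library and has a tag of its own, such as B607, and no batch is given. Proximal tubule markers were present in every mouse. The depth recovered from the values was 15.8 to 17.4 M fragments for the sham group and 13.3 to 16.5 M for the AAN group.

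The promoters of the members were read for the p53 response element, because it is the sequence through which p53 reaches its targets. The element is a pair of 10-base motifs with at most 1 base between them. A match here had at most 2 bases that differed from the element, none of them at the fixed C and G inside each motif. The element reads alike on both strands, so a search of 1 strand covers the other. RefSeq promoters on GRCm38.p6, from 250 bases before to 50 bases after each transcription start, were available for 35 of the 40 members. A match lay in 5 of these 35 (14.3%), against 218 of the 27025 genes with a promoter (0.807%). With at most 1 differing base it lay in 3 of the 35 members (8.57%), against 0.13% of all genes, and with none in 0 of the 35, against 0.0111%. The members were *Cdkn1a*, *Ccng1* and *Gtse1* with 1 differing base, and *Bax* and *Cd80* with 2. A match is a description of the sequence, and p53 binding was not measured in these mice. Sequence outside this window was not read, so a member without a match here may hold one elsewhere. The members were chosen in part as genes known to be transcribed by p53, so their share was not that of an unselected set. The promoters of *Perp*, *Pmaip1*, *Rrm2b*, *Trp53inp1* and *Zmat3* were not analysed here. The first 3 promoters are shown whole, 5′ to 3′, with the matching bases in capitals, since these members act on the cell cycle and their matches had 1 differing base, and for the other two the matching bases alone are shown.
Cdkn1a promoter, GRCm38.p6 chr17:29090729-29091028, plus strand: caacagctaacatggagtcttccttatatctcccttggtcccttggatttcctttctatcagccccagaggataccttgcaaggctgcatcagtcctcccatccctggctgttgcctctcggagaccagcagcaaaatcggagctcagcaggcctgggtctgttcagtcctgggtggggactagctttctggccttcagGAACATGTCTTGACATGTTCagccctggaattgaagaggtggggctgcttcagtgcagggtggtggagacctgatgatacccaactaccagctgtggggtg
Ccng1 promoter, GRCm38.p6 chr11:40755237-40755536, minus strand: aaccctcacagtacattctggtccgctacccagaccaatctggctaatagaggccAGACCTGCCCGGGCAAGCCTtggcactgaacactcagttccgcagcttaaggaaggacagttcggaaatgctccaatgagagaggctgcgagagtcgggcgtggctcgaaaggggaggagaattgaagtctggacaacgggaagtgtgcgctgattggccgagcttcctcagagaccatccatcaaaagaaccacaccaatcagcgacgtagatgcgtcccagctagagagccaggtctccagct
Gtse1 promoter, GRCm38.p6 chr15:85859696-85859995, plus strand: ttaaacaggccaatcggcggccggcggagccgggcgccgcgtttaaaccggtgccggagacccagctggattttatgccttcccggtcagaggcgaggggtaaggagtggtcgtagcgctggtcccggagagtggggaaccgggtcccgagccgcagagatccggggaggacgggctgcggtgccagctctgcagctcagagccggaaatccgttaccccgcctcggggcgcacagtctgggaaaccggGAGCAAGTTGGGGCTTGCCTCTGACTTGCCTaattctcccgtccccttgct
Bax match, within GRCm38.p6 chr7:45466849-45467148, minus strand: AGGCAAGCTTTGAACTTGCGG
Cd80 match, within GRCm38.p6 chr16:38458683-38458982, plus strand: GAACAGGCCTGGACAAGTCA
In *Cdkn1a* the match ran from base -51 to base -32 before the first of 2 listed starts. In *Ccng1* it ran from -195 to -176, and in *Bax* from -201 to -181 with 1 base between the motifs. *Gtse1* held 2 matches that overlap and share a motif, from -1 to 19 and from 10 to 30, where base 1 is the first transcribed base. In *Cd80* the match ran from -111 to -92.

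The values below depend on the scale between libraries. The median gene was 0.75 higher in AAN than in sham mice on the log2 scale, and 0.07 and -0.10 after 2 rescalings between mice, the median of ratios and quantile normalization. FPKM are scaled to the fragments of a mouse, and their sum differs between mice. Of this sum, 13 mitochondrial genes held 39.5% to 61.4% in the sham group and 21.4% to 55.0% in the AAN group. The sum divides by gene length, so these are not their shares of the fragments. A log2 difference of a member is therefore read beside 0.75, and the rescaled values are given where they change what is said. A pair of mice also stood apart. B607 of the sham group and B614 of the AAN group deviated from their own groups together, with a correlation of 0.588 across 10052 genes, against -0.471 to 0.291 in the other 23 pairs of a sham and an AAN mouse. In both, genes with transcripts over 6000 bases stood high against genes under 1200 bases, by 0.84 and 0.63 on the log2 scale, against -0.28 to 0.07 in the other 8 mice. B614 had the lowest level of the 6 AAN mice in 20 of the 40 members, and B630 in 17. Of the sham mice, B634 was the lowest in 22 and B607 in 11, so this did not mark the pair.

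The members stood mostly higher in the cortex of AAN mice. With limma on log2(FPKM + 0.1) and an adjusted p of at most 0.05, 27 of the 40 were at least 2-fold higher in AAN than in sham mice, where 35.8% of all genes tested were, and 1 was at least 2-fold lower, where 3.43% were. The levels of 27 members lay above every sham mouse in all 6 AAN mice, as did those of 40.3% of all genes, and the median log2 difference of the 40 was 1.58, against 0.75 for all genes. Of the 40, 33 lay above the median gene. After the median of ratios 18 members were at least 2-fold higher, against 19.1% of genes, and 1 lower, against 10.5%. After quantile normalization 16 were higher, against 14.8% of genes, and 1 lower, against 11.8%. The 28 members called held 17 that were called in the same direction under both rescalings, 16 higher and *Dcxr* lower. The share of all called genes that kept their call was not counted, so the 17 have no background beside them. Without B607 and B614, a choice made after seeing the data, 29 were higher, against 39.8% of 17189 genes, and 1 lower, against 3.67%. After the median of ratios without them 19 were higher, against 19.7% of genes, and 2 lower, against 11.5%.

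**Figure D1:**
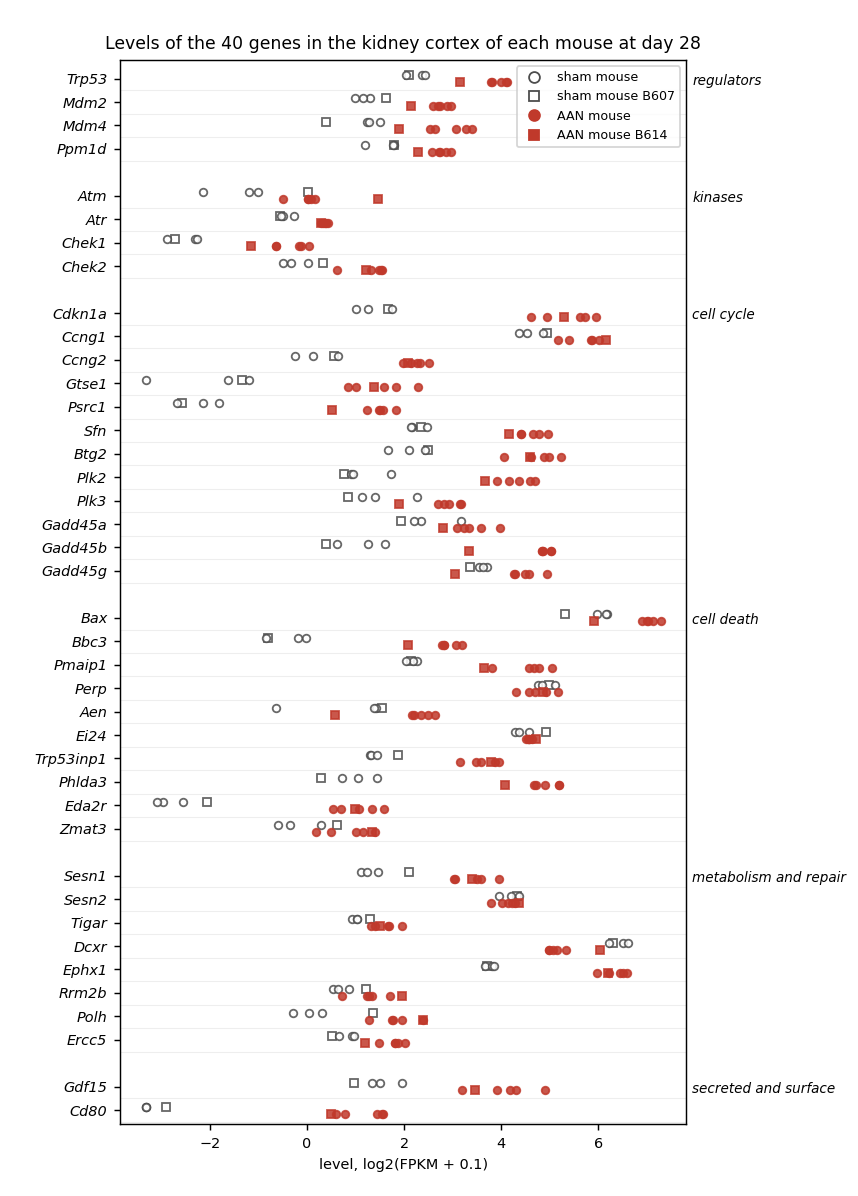
Level of each of the 40 members in each mouse at day 28, on the log2(FPKM + 0.1) axis, in rows grouped by role. Open grey symbols are the 4 sham mice and filled red symbols the 6 AAN mice, with squares for B607 and B614. In 27 rows every red symbol lies to the right of every grey one, and in the row of *Dcxr* every red symbol lies to the left.

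The regulators of p53 were all higher in AAN mice: 4 of 4 passed the test, where 35.8% of all genes did in this direction, with log2 differences of 1.05 to 1.71. *Trp53* itself (ENSMUSG00000059552, chromosome 11 from 69580359 to 69591873, plus strand) stood at 4.18, 4.02, 5.08 and 5.27 FPKM in the sham mice and at 8.74 to 17.3 (median 14.9) FPKM in the AAN mice. Every AAN mouse was above every sham mouse, and B614 was the lowest AAN mouse. The means were 4.64 ± 0.628 for the sham group and 14.4 ± 3.15 for the AAN group (FPKM, SD, n = 4 and n = 6), a log2 difference of 1.59 (SE 0.20, adjusted p = 3.56e-05, limma). *Mdm2* (ENSMUSG00000020184, chromosome 10 from 117688875 to 117710758, minus strand), the ligase that degrades p53 and is its target, was at 2.97, 1.88, 2.35 and 2.12 FPKM in sham mice and 4.32 to 7.74 (median 6.46) FPKM in AAN mice. The groups did not overlap, with B607 the highest sham mouse and B614 the lowest AAN mouse. Its log2 difference was 1.41 (SE 0.19, adjusted p = 7.03e-05, limma). *Mdm4* (ENSMUSG00000054387, chromosome 1 from 132959484 to 133030561, minus strand), which binds and silences p53 without degrading it, was at 1.20, 2.25, 2.74 and 2.31 FPKM in sham mice and 3.62 to 10.4 (median 7.22) FPKM in AAN mice. Here too all AAN mice were above all sham mice, and B607 and B614 were the lowest of their groups. The log2 difference was 1.71 (SE 0.31, adjusted p = 0.000586, limma). *Ppm1d*, a phosphatase that switches off p53 and the damage kinases, differed by 1.05 (SE 0.18, adjusted p = 0.000433, limma), which fell to 0.90 without sham mouse B634 and 0.99 without AAN mouse B642, under the 2-fold limit. With a pseudocount of 1 it was 0.87, also under that limit. After either rescaling 0 of the 4 regulators reached 2-fold with limma, while 3 of the 4 were higher at an unadjusted p under 0.05, against 29.3% of all genes after the median of ratios and 24.3% after quantile normalization, and 0 lower, against 24% and 28.5%. *Trp53* differed then by 0.84 (median of ratios) and 0.91 (quantile normalization), *Mdm2* by 0.67 and 0.56, *Mdm4* by 0.96 and 0.85, and *Ppm1d* by 0.30 and 0.24.

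Of the kinases that signal DNA damage, 3 of 4 passed the test as higher, against 35.8% of all genes. Of the 4, 1 passed after the median of ratios, against 19.1%, and after quantile normalization 0 with limma, against 14.8%, where 1 was higher and 1 lower at an unadjusted p under 0.05, against 24.3% and 28.5%. *Chek1* (ENSMUSG00000032113, chromosome 9 from 36708482 to 36727065, minus strand), the kinase downstream of Atr that halts cells with stalled replication forks, was nearly absent from sham cortex, at 0.0506, 0.102, 0.108 and 0.0358 FPKM, and at 0.348 to 0.923 (median 0.668) FPKM in AAN mice. The groups were well apart. These sham levels stand for at most 6.70 fragments in a mouse, so the size of the log2 difference, 2.10 (SE 0.28, adjusted p = 4.9e-05, limma), rests on the pseudocount, and it was 0.62 with a pseudocount of 1 and 3.03 with 0.01. It was 1.61 after the median of ratios, and 0.94 after quantile normalization, under the 2-fold limit. *Chek2* (ENSMUSG00000029521, chromosome 5 from 110839979 to 110874145, plus strand), the kinase downstream of Atm, was at 1.15, 0.607, 0.910 and 0.692 FPKM in sham mice and 1.43 to 2.82 (median 2.54) FPKM in AAN mice, with no overlap. It differed by 1.41 (SE 0.24, adjusted p = 0.000308, limma), and by 0.70 and 0.29 after the 2 rescalings. With a pseudocount of 1 it was 0.87, under the 2-fold limit. *Atm* (ENSMUSG00000034218, chromosome 9 from 53439149 to 53536740, minus strand), which responds to double-strand breaks, was at 0.912, 0.126, 0.337 and 0.395 FPKM in sham mice and 0.604 to 2.65 (median 0.939) FPKM in AAN mice. The groups overlapped, B607 was the highest sham mouse by far, and B614 stood above the other 5 AAN mice, which lay between 0.604 and 1.02 FPKM. *Atm* has long transcripts, and the shift of B607 and B614 towards long genes moved with its level. The long genes *Atr* and *Mdm4* were instead the lowest of their groups in both mice, and the part of length was not tested. The log2 difference of *Atm*, 1.29 (SE 0.43, adjusted p = 0.021, limma), was 0.94 without sham mouse B634 and 1.41 without B607 and B614. It fell to 0.07 after quantile normalization. *Atr* (ENSMUSG00000032409, chromosome 9 from 95857597 to 95951781, plus strand), which responds to stalled forks, was at 0.580, 0.734, 0.613 and 0.592 FPKM in sham mice and 1.12 to 1.25 (median 1.17) FPKM in AAN mice. All AAN mice were above all sham mice within a narrow range. The log2 difference of 0.81 (SE 0.16, adjusted p = 0.000912, limma) was under 2-fold and close to that of the median gene. After the median of ratios it was 0.12, and after quantile normalization -0.40. *Atr* shares exon bases with listed genes on the opposite strand, whose reads may be counted with it.

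Of the 12 members that act on the cell cycle, 10 were at least 2-fold higher in AAN mice, against 35.8% of all genes. The number was 8 after the median of ratios, against 19.1%, and 7 after quantile normalization, against 14.8%. *Cdkn1a* (ENSMUSG00000023067, chromosome 17 from 29090976 to 29100727, plus strand) encodes p21, the inhibitor of cyclin-dependent kinases through which p53 arrests cells, and holds the match to the response element printed above. It was at 3.08, 1.91, 2.27 and 3.26 FPKM in sham mice and 24.4 to 61.7 (median 44.3) FPKM in AAN mice. The lowest AAN mouse, B630, was still several times above the highest sham mouse. The means were 2.63 ± 0.644 for the sham group and 43.0 ± 14.2 for the AAN group (FPKM, SD, n = 4 and n = 6), a log2 difference of 3.94 (SE 0.27, adjusted p = 3.65e-07, limma), and 3.20 and 3.31 after the 2 rescalings. By level it was the 19th of the 40 members in sham mice and the 4th in AAN mice.

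*Gtse1* (ENSMUSG00000022385, chromosome 15 from 85859745 to 85876573, plus strand), a microtubule protein of S and G2 phase that restrains p53, was at 0.294, 0, 0.223 and 0.334 FPKM in sham mice and 1.68 to 4.80 (median 2.70) FPKM in AAN mice. It was listed at 0 in B634, which allows up to 0.0707 FPKM at 3 fragments over its longest transcript. *Psrc1* (ENSMUSG00000068744, chromosome 3 from 108383839 to 108388231, plus strand), a spindle protein, was at 0.0668, 0.126, 0.185 and 0.0568 FPKM in sham mice and 1.32 to 3.46 (median 2.71) FPKM in AAN mice. Neither gene overlapped between the groups, and both were close to the detection limit in sham cortex, at most 14.8 and 6.12 fragments in a mouse. The log2 differences were 3.36 (SE 0.42, adjusted p = 3.22e-05, limma) and 3.66 (SE 0.28, adjusted p = 6.88e-07, limma), and 1.64 and 1.65 with a pseudocount of 1. Cycling cells carry both transcripts, and the 8 markers of G2/M phase rose in the same mice from a sum of 1.83 to 2.34 FPKM to a sum of 18.2 to 38.1 FPKM. Their part in the result was not tested.

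*Gadd45b* (ENSMUSG00000015312, chromosome 10 from 80930073 to 80932204, plus strand), a stress-induced binding partner of p38 pathway kinases, was at 1.22, 2.29, 1.44 and 2.92 FPKM in sham mice and 10.1 to 32.7 (median 28.9) FPKM in AAN mice. The groups were far apart, although B614 stood well below the other 5 AAN mice, which lay between 28.5 and 32.7 FPKM. The log2 difference was 3.69 (SE 0.35, adjusted p = 3.53e-06, limma). Its relatives did not reach the limits. *Gadd45a*, the member of the family most tied to p53, differed by 0.92 (SE 0.27, adjusted p = 0.0114, limma) and *Gadd45g* by 0.71 (SE 0.30, adjusted p = 0.0557, limma). Both overlapped between the groups and lay near the median gene. Without B614 *Gadd45a* reached 1.02, and without sham mouse H249 1.17, past the 2-fold limit. *Gadd45g* was -0.05 after the median of ratios and 0.20 after quantile normalization. *Gadd45a* shares exon bases with a listed gene on the opposite strand.

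*Plk2* (ENSMUSG00000021701, chromosome 13 from 110395046 to 110400844, plus strand), a polo-like kinase induced by p53, was at 1.59, 1.78, 1.82 and 3.23 FPKM in sham mice and 12.6 to 26.0 (median 19.2) FPKM in AAN mice. H249 stood above the other sham mice but far below every AAN mouse. Its log2 difference was 3.15 (SE 0.25, adjusted p = 9.58e-07, limma). *Btg2* (ENSMUSG00000020423, chromosome 1 from 134075170 to 134079120, minus strand), a brake on the entry into S phase, was at 5.52, 3.08, 4.21 and 5.29 FPKM in sham mice and 16.6 to 37.7 (median 26.8) FPKM in AAN mice. The groups did not overlap, and the log2 difference was 2.55 (SE 0.24, adjusted p = 3.49e-06, limma). *Sfn*, or stratifin, which keeps mitotic kinases out of the nucleus, rose by 2.29 (SE 0.18, adjusted p = 7.07e-07, limma). *Plk2*, *Btg2* and *Sfn* stayed at least 2-fold higher under both rescalings. The other cyclin and kinase members passed the test as well. *Ccng2* differed by 1.95, *Plk3* by 1.37 and *Ccng1*, an abundant p53 target whose promoter is printed above, by 1.07 (adjusted p = 7.2e-06, 0.00233 and 0.00122, limma). *Ccng2* was at 1.23 after the median of ratios and at 0.97, under the 2-fold limit, after quantile normalization. *Ccng1* fell to 0.97 without sham mouse B636 and to 0.99 without B614. It was 0.31 after the median of ratios and 0.79 after quantile normalization. *Plk3* overlapped between the groups and shares exon bases with a listed gene on the opposite strand. It fell to 0.62 after the median of ratios and 0.53 after quantile normalization.

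Of the 10 members tied to cell death, 5 were at least 2-fold higher, against 35.8% of all genes. The number was 5 after either rescaling as well, against 19.1% and 14.8% of all genes. *Phlda3* (ENSMUSG00000041801, chromosome 1 from 135766119 to 135769136, plus strand), which competes with the survival kinase Akt for the membrane, was at 1.11, 1.54, 1.97 and 2.60 FPKM in sham mice and 16.8 to 36.5 (median 27.8) FPKM in AAN mice. All AAN mice were far above all sham mice, with B614 again the lowest. The means were 1.81 ± 0.636 for the sham group and 28.4 ± 7.49 for the AAN group (FPKM, SD, n = 4 and n = 6), and the log2 difference was 3.92 (SE 0.26, adjusted p = 3.52e-07, limma). *Eda2r* (ENSMUSG00000034457, chromosome X from 97333840 to 97377216, minus strand), a receptor of the TNF family, was at 0.139, 0.0271, 0.0174 and 0.0694 FPKM in sham mice and 1.35 to 2.89 (median 1.93) FPKM in AAN mice. It was barely detected in sham cortex, at most 11.5 fragments in a mouse, and present in every AAN mouse. Its log2 difference was 3.70 (SE 0.27, adjusted p = 5.85e-07, limma), and 1.48 with a pseudocount of 1. *Bbc3* (ENSMUSG00000002083, chromosome 7 from 16308393 to 16318205, plus strand), which encodes the BH3-only protein Puma, was at 0.474, 0.458, 0.882 and 0.776 FPKM in sham mice and 4.14 to 9.01 (median 6.98) FPKM in AAN mice. The groups were well apart, and the log2 difference was 3.26 (SE 0.25, adjusted p = 6.68e-07, limma). *Pmaip1*, which encodes the BH3-only protein Noxa, rose by 2.26 (SE 0.27, adjusted p = 1.96e-05, limma) and *Trp53inp1*, a cofactor of p53 in stress, by 2.16 (SE 0.19, adjusted p = 2.29e-06, limma).

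The other 5 members tied to cell death did not pass. *Bax*, the pore-forming protein that Puma and Noxa release, had the highest level of all 40 members in AAN mice, but its log2 difference of 0.97 (SE 0.27, adjusted p = 0.00866, limma) was just under 2-fold, with B614 inside the range of the sham mice. Without B614 it was 1.16, without B634 1.06 and without B636 1.05. After the median of ratios it was 0.20, and after quantile normalization 0.90. *Aen*, an exonuclease induced by p53, differed by 1.14 (SE 0.48, adjusted p = 0.0577, limma), and its groups overlapped through B614 at 1.39 FPKM, below 3 of the 4 sham mice. Without B614 the difference was 1.44, without B607 1.34, and 1.64 without both, each past the limits, but without B636, the sham mouse at 0.544 FPKM, it was 0.62. After the 2 rescalings it was 0.41 and 0.23. *Zmat3*, an RNA-binding zinc finger protein, differed by 0.93 (SE 0.31, adjusted p = 0.0198, limma) and by 1.02 to 1.14 with B607, H249, B630 or B639 left out. It was 0.23 after the median of ratios and -0.19 after quantile normalization. *Perp*, a protein of the plasma membrane and of desmosomes, differed by -0.17 (SE 0.18, adjusted p = 0.411, limma), and *Ei24*, a protein of the endoplasmic reticulum, by 0.06 (SE 0.15, adjusted p = 0.739, limma). Both lay well below the median gene, and after the 2 rescalings the difference of *Ei24* was -0.70 and -0.32 and that of *Perp* -0.94 and -0.52, all with an adjusted p of at most 0.05 (limma) and under 2-fold. *Ei24* shares exon bases with a listed gene on the opposite strand.

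The 8 members of metabolism and repair held 3 that were higher, a share close to the 35.8% of all genes, 1 that was lower, against 3.43%, and 4 that did not pass. After either rescaling 2 were higher, against 19.1% and 14.8% of all genes, and 1 lower, against 10.5% and 11.8%. *Ephx1* (ENSMUSG00000038776, chromosome 1 from 180976210 to 181020904, minus strand), the microsomal epoxide hydrolase, was at 13.0, 12.6, 13.8 and 14.3 FPKM in sham mice and 62.9 to 96.0 (median 80.6) FPKM in AAN mice. The sham mice were close to each other, and every AAN mouse was several times higher. It became the second most abundant member, with a log2 difference of 2.57 (SE 0.15, adjusted p = 1.84e-07, limma), although a listed gene on the same strand shares exon bases with it. *Dcxr* (ENSMUSG00000039450, chromosome 11 from 120725399 to 120727281, minus strand), a reductase of dicarbonyls and of xylulose and the most abundant member in sham mice, went the other way. It was at 78.6, 74.9, 91.1 and 98.3 FPKM in sham mice and 31.5 to 65.2 (median 34.3) FPKM in AAN mice. All AAN mice were below all sham mice, and B614 was nearer to the sham mice than to the other 5 AAN mice, which lay between 31.5 and 40.3 FPKM. *Dcxr* fell by 1.16 on the log2 scale (SE 0.21, adjusted p = 0.000629, limma). The 8 proximal tubule markers moved with it. All 8 were lower in AAN mice at an adjusted p of at most 0.05 (limma), 7 of them at least 2-fold. Their summed level was 2539 to 4499 FPKM in sham mice and 698.8 to 2243 FPKM in AAN mice, of which B614 had the highest. Their part in the level of *Dcxr* was not tested.

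*Sesn1* and *Sesn2*, related stress sensors that restrain growth signalling through mTORC1, did not move together. *Sesn1* rose by 1.94 (SE 0.24, adjusted p = 2.78e-05, limma), and *Sesn2* differed by -0.07 (SE 0.16, adjusted p = 0.706, limma), well below the median gene, and by -0.83 and -0.53 after the 2 rescalings. *Polh*, the polymerase that copies past damaged bases, rose by 1.57 (SE 0.32, adjusted p = 0.00126, limma), with B607 the highest sham mouse and inside the AAN range. After the median of ratios it was 0.86 and after quantile normalization 0.575, both under 2-fold. *Ercc5*, an endonuclease of nucleotide excision repair, differed by 0.93 (SE 0.19, adjusted p = 0.00141, limma). It was just past 2-fold without B636 and without B614, where it was 1.03. After the median of ratios it was 0.20, and after quantile normalization -0.05. *Tigar*, a phosphatase that slows glycolysis, differed by 0.52 (adjusted p = 0.0176, limma) and *Rrm2b*, a subunit of the ribonucleotide reductase of resting cells, by 0.57 (adjusted p = 0.0611, limma). Both lay below the median gene, and both turned negative after either rescaling.

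Both members with a role outside the cell were higher, against 35.8% of all genes, and both remained so after either rescaling. *Gdf15* (ENSMUSG00000038508, chromosome 8 from 70629393 to 70632456, minus strand), a secreted stress hormone of the TGF-beta family, was at 1.86, 2.74, 2.41 and 3.77 FPKM in sham mice and 9.09 to 29.8 (median 16.5) FPKM in AAN mice. The AAN mice ranged widely, with B666 lowest and A483 highest, and none overlapped the sham mice. The log2 difference was 2.56 (SE 0.31, adjusted p = 2.85e-05, limma). *Cd80* (ENSMUSG00000075122, chromosome 16 from 38455561 to 38496335, plus strand), a ligand of T cell costimulation borne by antigen-presenting cells, was at 0.0336 FPKM in B607, which is at most 1.86 fragments, and was listed at 0 in the other 3 sham mice, which allows up to 0.06 FPKM. In AAN mice it was at 1.31 to 2.86 (median 2.11) FPKM. It was thus all but undetected in sham cortex and present in every AAN mouse. The fitted log2 difference of 4.29 (SE 0.27, adjusted p = 2.43e-07, limma) depends on the pseudocount, from 1.59 with 1 to 7.11 with 0.01, so no fold is given. The 8 leukocyte markers moved with *Cd80*, from a sum of 20.2 to 33.9 FPKM in sham mice to 263 to 942 FPKM in AAN mice, 8 of 8 higher. Their part in its level was not tested.

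**Figure D2:**
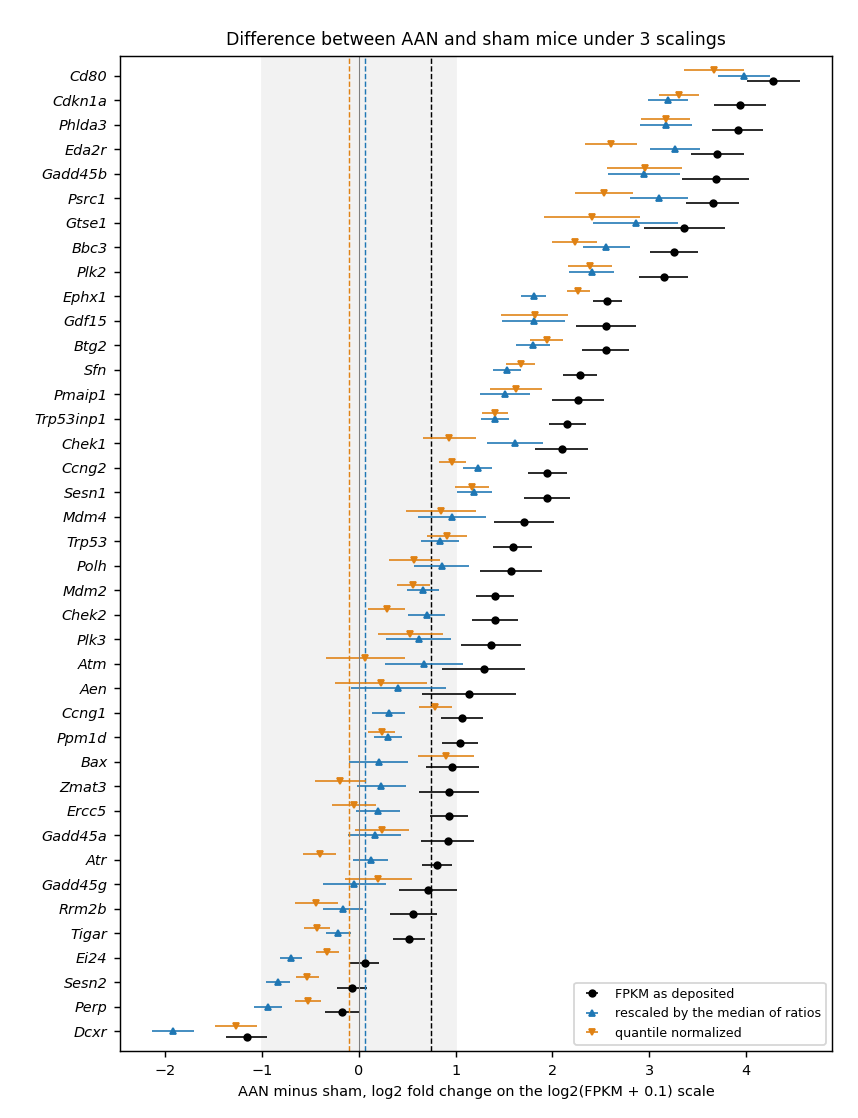
Log2 difference between AAN and sham mice for each member (points, with standard errors as bars) from the FPKM as deposited, after the median of ratios and after quantile normalization. Dashed lines mark the median of all 17129 genes under each scaling, at 0.75, 0.07 and -0.10, and the grey band the range within 2-fold; 33, 33 and 32 of the 40 members lie to the right of the line of their own colour.

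Differences between a pair of members within a mouse do not depend on a scale common to all genes of a mouse, other than through the pseudocount, and 12 such pairs were compared between the groups on the log2(FPKM + 0.1) scale with an exact two-sided permutation test, whose smallest p is 0.00476 over the 210 splits of the mice. P-values were adjusted over the 12 pairs. The pairs were chosen with earlier results of these data known, so these p-values are not those of pairs set blind. *Cdkn1a* was below *Trp53* in every sham mouse, with a difference of -0.82 ± 0.33 (SD, n = 4), and above it in every AAN mouse, with a difference of 1.54 ± 0.55 (SD, n = 6). The difference between the groups was 2.35 (SE 0.28, exact permutation p = 0.00476, adjusted 0.0143), so *Cdkn1a* rose more than *Trp53* did. *Gadd45b* against *Gadd45g* went from -2.59 ± 0.44 (SD, n = 4) to 0.39 ± 0.20 (SD, n = 6), a difference of 2.98 (SE 0.24, exact permutation p = 0.00476, adjusted 0.0143). Every AAN mouse had more *Gadd45b* than *Gadd45g*, and every sham mouse less.

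Other relatives parted as well. *Sesn2* stood above *Sesn1* by 2.73 ± 0.34 (SD, n = 4) in sham mice and 0.72 ± 0.37 (SD, n = 6) in AAN mice, a difference of -2.01 (SE 0.23, exact permutation p = 0.00476, adjusted 0.0143). *Plk3* against *Plk2* went from 0.33 ± 0.81 (SD, n = 4) to -1.46 ± 0.41 (SD, n = 6), a difference of -1.78 (SE 0.44, exact permutation p = 0.00476, adjusted 0.0143). These 2 pairs, and the 2 pairs before them, did not overlap between the groups. *Ccng1* against *Ccng2* changed by -0.88 (SE 0.20, exact permutation p = 0.0143, adjusted 0.0286) and *Bbc3* against *Pmaip1* by 0.995 (SE 0.29, exact permutation p = 0.0143, adjusted 0.0286). Both of these shrank after quantile normalization, to -0.17 and 0.60, and with a pseudocount of 1, to -0.35 and 0.20, and no longer passed. Without B607 they were -0.88 and 0.89 and without B634 -0.76 and 0.84, and did not pass either. With a mouse left out the splits are fewer and the smallest possible p is larger, so this does not show a weaker difference.

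The other 6 pairs did not pass. *Mdm2* against its activator *Trp53* differed by -0.18 (SE 0.20, exact permutation p = 0.367, adjusted 0.49), and the groups overlapped widely. *Mdm2* against *Mdm4* differed by -0.30 (SE 0.40, exact permutation p = 0.476, adjusted 0.49), with B607 far above the other mice, and by 0.06 without it. *Chek1* against *Chek2* differed by 0.69 (SE 0.32, exact permutation p = 0.0476, adjusted 0.0816), and by -0.26 with a pseudocount of 1. It was 1.53 with a pseudocount of 0.01 and 0.91 after the median of ratios, and passed under both. *Atr* against *Atm* differed by -0.48 (SE 0.58, exact permutation p = 0.381, adjusted 0.49), with B607 and B614 the lowest of their groups. *Gadd45a* against *Gadd45g* differed by 0.20 (SE 0.29, exact permutation p = 0.49, adjusted 0.49), and by 0.07 to 0.43 with each mouse left out. *Gtse1* against the proliferation marker *Mki67* differed by -0.32 (SE 0.42, exact permutation p = 0.41, adjusted 0.49), and by 0.44 with a pseudocount of 0.01. With a pseudocount of 1 it was -0.66 and passed. A p above the threshold does not show that the genes of a pair changed alike.

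**Figure D3:**
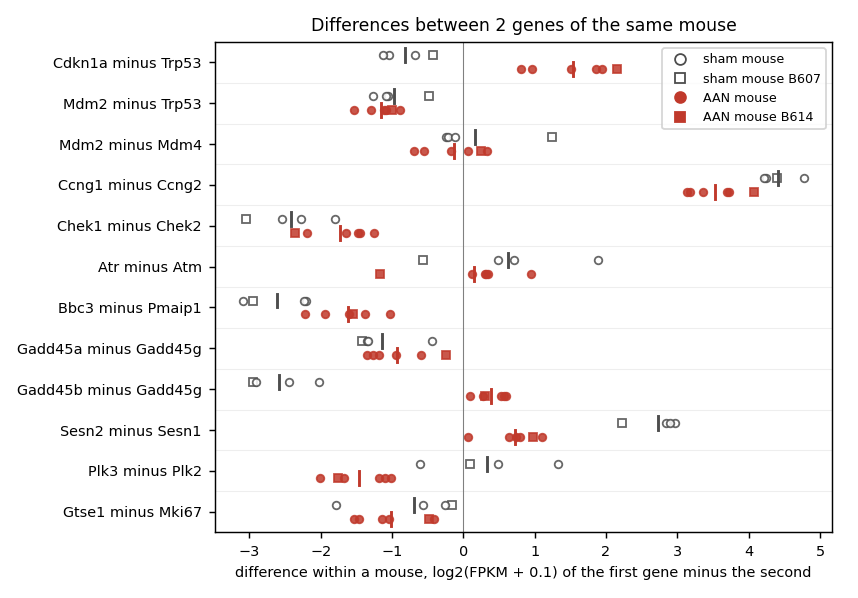
Difference between 2 genes of the same mouse, in log2(FPKM + 0.1), for the 12 pairs compared. Grey open symbols are sham mice, red filled symbols AAN mice, squares B607 and B614, and vertical bars the group means. The groups are fully apart for *Cdkn1a* minus *Trp53*, *Ccng1* minus *Ccng2*, *Gadd45b* minus *Gadd45g*, *Sesn2* minus *Sesn1* and *Plk3* minus *Plk2*.

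Other genes of the pathway were read from 2 lists, which were also chosen with earlier results of these data known. In the values as deposited, those that passed were all higher in AAN mice. Of 29 other genes of the p53 pathway, 27 were tested, 15 were at least 2-fold higher in AAN mice and 0 lower with limma, against 35.8% and 3.43% of all genes. At an unadjusted p under 0.05, 21 were higher and 0 lower, against 59% and 6.68%. Their median log2 difference was 1.36, against 0.75 for all genes. *Cdkn2a*, among whose products Arf blocks Mdm2, was listed at 0 in all 4 sham mice and was at 1.18 to 3.79 FPKM in the AAN mice. The single value per gene does not tell its products apart. *Ckap2*, a spindle protein, differed by 3.76 (adjusted p = 4.64e-06, limma) and *Tap1*, the peptide transporter of antigen presentation, by 3.53 (adjusted p = 4.76e-07, limma). Among the lowest were *Hipk2*, a kinase of p53, at -0.11 (adjusted p = 0.898, limma), *Trp53bp2*, a binding protein of p53, at -0.02 (adjusted p = 0.934, limma) and *Rchy1*, a ligase for p53, at 0.02 (adjusted p = 0.929, limma). *Hipk2* was at 4.85 FPKM in B607 and 4.05 FPKM in B614, against 0.517 to 0.793 FPKM in the other 8 mice. Of 23 other genes of the checkpoint and of repair, 13 were at least 2-fold higher and 0 lower with limma, against the same 35.8% and 3.43%. At an unadjusted p under 0.05, 18 were higher and 0 lower, against 59% and 6.68%, and the median was 1.31, against 0.75. *Cdc25b*, a phosphatase that drives cells into mitosis, differed by 1.996 (adjusted p = 5.34e-06, limma), *Topbp1*, an activator of Atr, by 1.80 (adjusted p = 2e-05, limma) and *Rad50*, of the complex that senses breaks, by 1.57 (adjusted p = 7.8e-06, limma). *Hus1*, of the clamp that loads at damage, was at -0.27 (adjusted p = 0.271, limma), *Nbn*, a partner of Rad50, at 0.11 (adjusted p = 0.534, limma) and *Cdc25a*, a phosphatase of S phase entry, at 0.12 (adjusted p = 0.748, limma). After the median of ratios 8 of the 27 and 6 of the 23 were higher, against 19.1% of all genes. After quantile normalization 8 of the 27 and 3 of the 23 were higher, against 14.8%, the share of the 23 being no larger than that of all genes. Of the 23, *Hus1* and *Cdc25a* were then lower, also no larger a share than the 11.8% of all genes.

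Markers of the cells and states that the cortex can hold moved with the members. Injured tubule markers, 7 of 7 higher, summed to 146 to 241 FPKM in sham mice and 1419 to 3609 FPKM in AAN mice, and *Havcr1* and *Krt20* among them were at 0 in a sham mouse. Fibroblast markers, 8 of 8 higher, went from 16.2 to 22.3 FPKM to 116 to 264 FPKM, with *Lum* at 0 in a sham mouse. S phase markers, 7 of 8 higher, went from 11.2 to 22.2 FPKM to 43.5 to 84.3 FPKM. Each of these sums, with those of the proximal tubule, leukocytes and G2/M phase above, was fully apart between the groups. Among AAN mice B614 had the lowest sums of injured tubule (1419 FPKM), leukocyte (263 FPKM), fibroblast (116 FPKM) and G2/M phase (18.2 FPKM) markers. It had the highest proximal tubule sum, 2243 FPKM, and its S phase sum, 52.4 FPKM, was not the lowest. The part of these cells and states in the levels of the members was not tested.

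The levels of the members in B607 and B614 did not all go with transcript length. *Atm*, *Ccng1*, *Ei24* and *Rrm2b* were the highest of their groups in both mice. *Atr*, *Bax*, *Ercc5*, *Gadd45a*, *Gadd45b*, *Gadd45g*, *Mdm4*, *Phlda3*, *Plk2* and *Plk3* were the lowest of their groups in both. The longest transcripts of *Atr* and *Mdm4*, at 8102 and 7105 bases, are over 6000 bases, as is that of *Atm* at 9819. Those of *Bax* and *Gadd45g*, at 1100 and 1071 bases, are under 1200. *Trp53* was second lowest in B607 and lowest in B614. The part of transcript length was not tested. With B607 and B614 left out, the levels of 33 members lay above all sham mice, against 54.8% of all genes, and 1 below, against 6.29%. With all 10 mice 27 lay above, against 40.3%, and 1 below, against 3.25%, so the share rose over all genes as well.

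**Figure D4:**
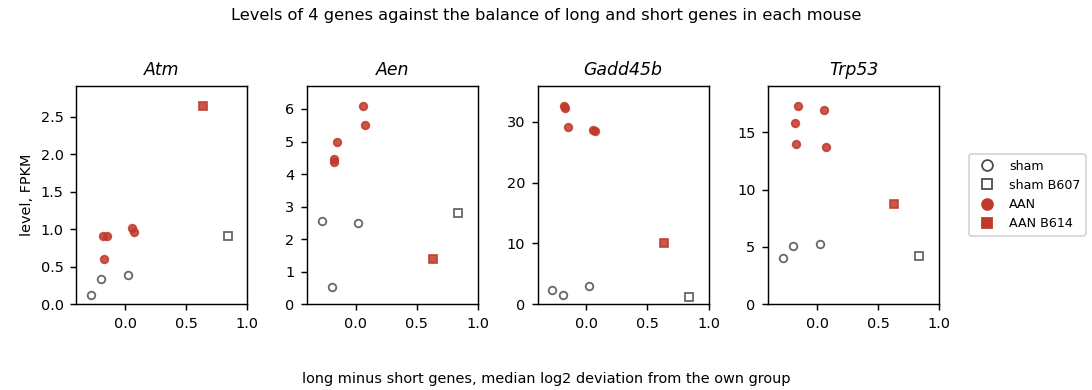
Level in FPKM of *Atm*, *Aen*, *Gadd45b* and *Trp53* in each mouse against the median log2 deviation of long genes (over 6000 bases) minus that of short genes (under 1200 bases) from the own group. Squares are B607 and B614, which stand at 0.84 and 0.63 on the horizontal axis; B614 is the highest AAN mouse for *Atm* and the lowest for the other genes, which were chosen after their values were seen.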

How the data were processed

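Paired-end libraries of kidney cortex RNA from 4 sham and 6 AAN mice were made with the TruSeq kit and sequenced on the HiSeq Xten. The authors discarded reads of rRNA, adapters, low quality or short length, aligned what was left with Hisat2 to GRCm38 and had Stringtie estimate FPKM per annotated gene. The deposited values are these FPKM, 1 per gene and mouse, with no counts and no scaling between mice named. How shared fragments were counted and whether strand was used are not given in the sources used here. The authors tested with edgeR, which needs counts, so limma 3.58.1 (moderated with a trend, robust, in R 4.3.3) was used here on log2(FPKM + 0.1), with Benjamini-Hochberg adjustment over the 17129 genes tested. The limits are those of the study, 0.05 for the adjusted p and 2-fold for the change.

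Symbols and positions came from GENCODE mouse release 21 on GRCm38, which held 21650 of the 21792 genes. Depth was recovered from low FPKM in genes with 1 transcript, of which 95.2% to 96.9% were whole fragments within 0.05. Fragment limits assume the longest transcript, and these limits cover counting error only. Pairs of genes were compared by exact permutation of the mice (two-sided). The fit and the exact test were tested on simulated data. The members, gene lists and pairs were chosen with earlier results of these data known. All 40 members were named. Values in every mouse are given for *Trp53*, *Mdm2*, *Mdm4*, *Cdkn1a*, *Atm*, *Atr*, *Chek1* and *Chek2*, and for the 12 others farthest from the median gene with at least 1 FPKM in the higher group. Of the other pathway genes, the 3 highest and 3 lowest differences with at least 1 FPKM in the higher group are named. The alternatives were other pseudocounts (1 and 0.01), filters (none, or a mean of at least 1 FPKM) and scalings, limma without trend or robust, no fold limit, each mouse left out, and the mice with B tags alone. Other steps used scipy 1.17.1, numpy 2.4.6 and pandas 2.3.3 in Python 3.11.15, and figures matplotlib 3.10.9.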

Additional observations from a re-analysis of the deposited data

Results flagged for a closer look

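Of 92 sets of values (the members and the marker lists in each group), 9 held a mouse farther from the rest of its group than Dixon's test allows, where chance gives about 4.6, and 5 of the 9 were in B614. *Atm* was at 2.65 FPKM in B614 and at 0.604 to 1.02 FPKM in the other AAN mice. *Gadd45b* was at 10.1 FPKM in B614, against 28.5 to 32.7 FPKM. *Aen* was at 1.39 FPKM in B614, against 4.37 to 6.10 FPKM, and at 0.544 FPKM in sham mouse B636, against 2.51 to 2.81 FPKM in the other sham mice. *Dcxr* was at 65.2 FPKM in B614, against 31.5 to 40.3 FPKM, and the summed proximal tubule markers were at 2243 FPKM, against 698.8 to 1059 FPKM. Among sham mice, *Ppm1d* was at 2.19 FPKM in B634, against 3.33 to 3.37 FPKM, and *Plk2* at 3.23 FPKM in H249, against 1.59 to 1.82 FPKM. *Cd80* was at 0.0336 FPKM in B607 and listed at 0 in the other sham mice.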

How the results depend on the processing

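The number of members higher in AAN mice, 27 as deposited, was 16 after quantile normalization, and 18 to 33 under the other alternatives, with 26 to 30 when each mouse was left out. The member called lower, *Dcxr*, was joined by *Perp*, 2 in all, after the median of ratios without B607 and B614. All 28 members called were compared under the alternatives set at the start, and 17 kept their call under every one, 25 when each mouse was left out. These counts were not made over all genes. The calls lost to a single mouse were those of *Ppm1d*, *Atm* and *Ccng1*. Over all genes, the number higher was 6126 as deposited, 2909 with 1 as the pseudocount, 4025 among genes averaging 1 FPKM or more, 3266 with the median of ratios, 2537 with quantile normalization, 3385 after the median of ratios without B607 and B614 and 9482 with no fold limit. The number lower was 588, and 1802 with the median of ratios, 2025 when quantile normalized, 1970 with the median of ratios without both mice and 1027 with no fold limit. Some directions turned. After the median of ratios *Gadd45g* was at -0.045, *Ei24* at -0.70, *Tigar* at -0.21 and *Rrm2b* at -0.16. After quantile normalization *Atr* was at -0.40, *Ei24* at -0.32, *Zmat3* at -0.19, *Tigar* at -0.43, *Rrm2b* at -0.44 and *Ercc5* at -0.051. After the median of ratios without B607 and B614 *Ei24* was at -0.66, *Tigar* at -0.19 and *Rrm2b* at -0.21. *Sesn2* was at 0.004 in the mice with B tags alone, and *Ei24* was at -0.026 to 0.193 with each mouse left out. Of the pairs, *Chek1* minus *Chek2* turned to -0.26 with a pseudocount of 1, *Gtse1* minus *Mki67* to 0.44 with 0.01, and *Gadd45a* minus *Gadd45g* to -0.031 without B607 and B614 and to -0.025 after the median of ratios without them. *Mdm2* minus *Mdm4* was -0.434 to 0.061 with each mouse left out. Leaving out B607 and B614 was chosen after seeing the data. Where a value changed, the cause was not tested. No paired analysis was possible because no tag occurs in both groups. In sham cortex *Chek1*, *Psrc1*, *Eda2r*, *Gtse1* and *Cd80* rest on few fragments, so the size of their differences is uncertain.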
